A study of Rattus norvegicus with 9 samples.

Results

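The serine protease inhibitors followed here were the serpins, the Kunitz inhibitors Spint1 and Spint2, the Kazal inhibitors of the Spink group and the whey acidic protein (WAP) domain genes Slpi and Wfdc, as read by a rat whole-genome array in cultured Sertoli cells of 3 ages. Members were the genes whose printed array name begins with Serpin, Spink, Wfdc, Slpi or Spint, with Serping1, the C1 inhibitor of complement, left out. The rule used names only and no measured value. It found 44 genes on 51 probes: 33 serpins, 3 Kazal genes, 2 Kunitz genes and 6 WAP genes. A level could be tested for 22 of the 44, among 22637 genes tested in all. A further 12 genes that carry such a symbol today were printed on the array under other names and are not members. Of these, 4 passed the filter, namely Serpinb9, Spink8, Wfdc18 and Wfdc21.

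Sertoli cells, the somatic nurse cells of the seminiferous tubule, were isolated from rat testes at 5, 12 and 60 days of age, with 3 arrays for each age. Every culture was kept for 4 days in a medium with defined growth factors, and every culture received 50 ng/ml ovine FSH and 1e-07 M testosterone in pulses for 11 h, so no untreated culture serves as a control. Total RNA (500 ng) was labelled with Cy3 and hybridised to a single-colour array, and the study compared the 3 ages. Genotype, strain and the number of animals behind each culture are not given in the sources used here, and neither is whether replicates came from separate animals, so p-values measure only the spread between these samples, which may be technical.

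Serpins trap their target protease by a conformational change after cleavage of an exposed loop, and some family members have no inhibitory role and act as chaperones or signals. Kunitz, Kazal and WAP inhibitors are small, disulphide-bonded domains that block the active site of serine proteases. In the testis, plasminogen activators and their inhibitors are known from the remodelling of the tubule wall and the migration of germ cells across the Sertoli cell barrier, and Serpina5 is known for its role in male fertility.

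A level below is the log2 of the processed signal minus the log2 of the 75th percentile of its array, so 0 is the level of a fairly bright probe, and levels of different probes are not set against each other. The 75th percentile lay between 148 and 437 intensity units, and 49.1% to 63.0% of probes were well above background. No spot of a member was saturated. Of the Sertoli markers, 19 of 20 listed genes were tested, and Inha, Clu, Tf, Shbg, Amh and Wt1 were well above background on all 9 arrays. Fshr passed background on only 1 of the 3 youngest arrays and on all later ones, and Sox9 on no 5-day array. The summed level of the Sertoli list ranged from 6.48 to 6.92 at 5 days, 7.80 to 8.10 at 12 days and 8.41 to 8.48 at 60 days. Of its tested genes 12 rose and 0 fell from 5 to 12 days. From 12 to 60 days 6 rose and 1 fell, and from 5 to 60 days 12 rose and 1 fell. Markers of other cells moved with age as well. The spermatocyte markers Sycp1, Sycp3 and Ldhc were above background on no 5-day array and on all later ones, the spermatid markers Smcp and Odf1 on the 60-day arrays only, and the myoid markers Acta2 and Myh11 were not tested. The summed level of the spermatocyte list (14 of 15 tested) ranged from 0.87 to 1.20 at 5 days, 4.08 to 4.46 at 12 days and 6.88 to 7.78 at 60 days. That of the spermatid list (15 of 16) ranged from 2.06 to 2.71, 2.31 to 2.80 and 5.02 to 5.74. The peritubular and fibroblast list (13 of 15) went the other way, from 9.10 to 10.0 at 5 days through 8.05 to 8.63 at 12 days to 5.42 to 7.86 at 60 days. Macrophage markers (13 of 15) summed to 2.94 to 3.70, 1.36 to 1.57 and 1.97 to 2.13, and duct epithelium markers (8 of 10) to 4.54 to 4.98, 1.80 to 2.18 and 2.67 to 2.97. In bulk RNA, fewer cells of a type and less RNA per cell cannot be told apart.

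**Figure D1:**
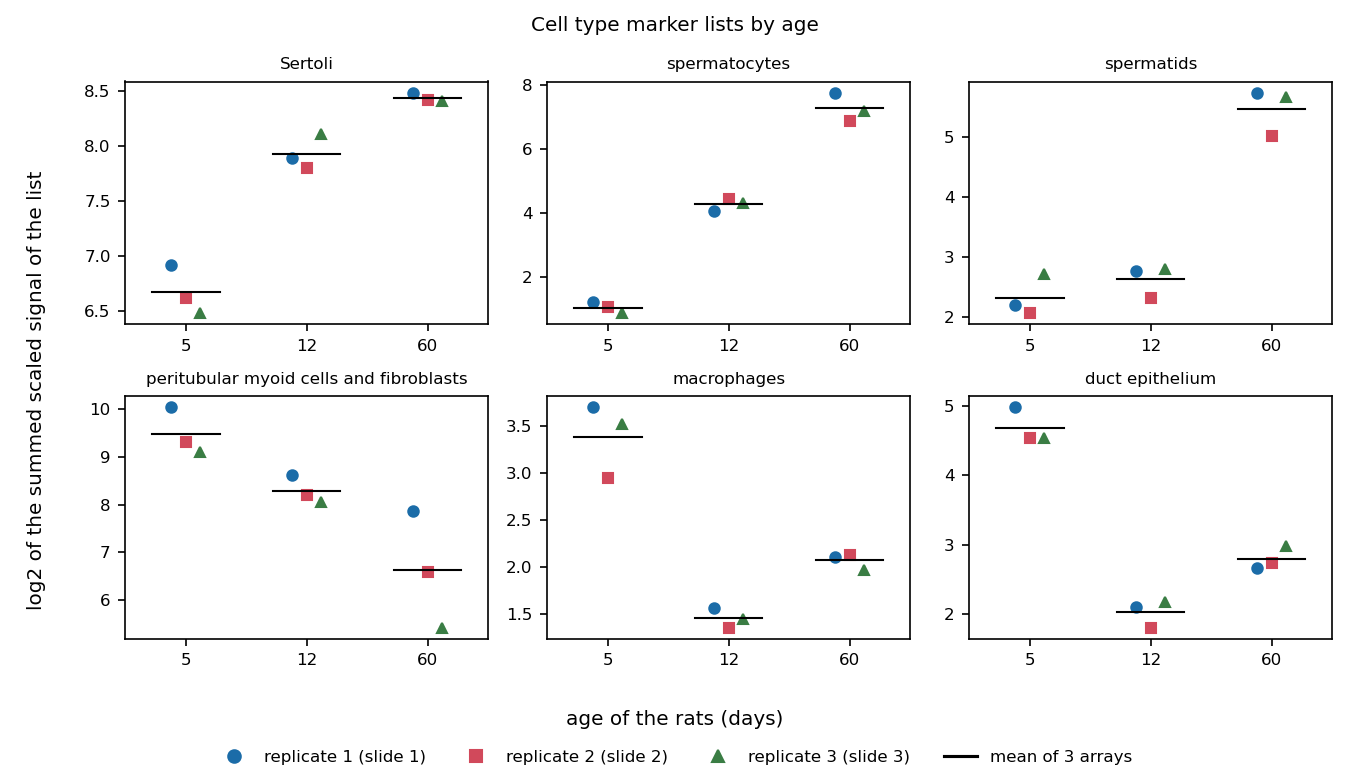
Summed level of 6 marker lists on each of the 9 arrays (y axis, log2 of the summed scaled signal) by age in days (x axis), with symbols for replicate numbers and a line for the mean of 3 arrays. Spermatocyte and spermatid markers were highest at 60 days and the peritubular and fibroblast list at 5 days, while the macrophage and duct lists were lowest at 12 days.

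Between 5 and 12 days the collagen chaperone Serpinh1, the secreted serpins Serpinf1 and Serpine2, the intracellular Serpinb1a and the mucosal inhibitor Slpi fell, by 1.22 (Serpinh1) to 3.22 (Slpi) on the log2 scale, while Wfdc1 and Slpil2 rose by 2.07 and 1.60. Of the 22 tested members, 2 rose and 5 fell at an adjusted p under 0.05 (limma moderated test, 2-sided, Benjamini-Hochberg over all genes tested), beside 12.4% of all genes tested that passed in either direction (6.08% rose and 6.33% fell). The share called was 31.8% of the tested members. Of the 11 members well above background on all 9 arrays, 5 were called, where 9.46% of all genes so measured were.

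Between 12 and 60 days Slpi and Serpina5 had the largest rises (6.39 and 5.96) and Serpinf1 the largest fall (-2.76). Of the 22, 7 rose and 4 fell, beside 25.2% of all genes tested (12.2% rose and 13% fell). The other risers were Wfdc3, Serpina9, Serpinb1a, Wfdc1 and Serpinb6a, and Serpine2 and Serpinh1 were among the other fallers. The share called was 50.0% of the tested members. Of the 11 members measured on every array, 6 were called, against 20.5% of such genes.

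Over the whole span Serpina5, Wfdc3, Wfdc1, Serpina9, Slpi, Serpinb6b and Slpil2 rose, and Serpinf1, Serpine2, Serpinh1 and Wfdc2 were among those that fell. In all 7 rose and 5 fell of the 22 (54.5%), beside 35.3% of all genes tested (17.2% rose and 18.1% fell). Of the 11 members measured on every array, 8 were called, against 29.1% of such genes. The median difference of the tested members was -0.35 from 5 to 12 days, 0.71 from 12 to 60 days and 0.62 from 5 to 60 days, where all genes tested had medians of 0.04, -0.16 and -0.09. These shares and medians describe the list and are no support for a direction, because Serpina5, Serpina9 and Wfdc3, for example, passed the filter through later arrays only and were bound to be higher there. In each called comparison of a member the arrays of the earlier and the later age did not overlap. Called or not, 11, 15 and 13 of the 22 did not overlap in the 3 comparisons. The share among all genes was not taken, so this is no separate result about the members.

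**Figure D2:**
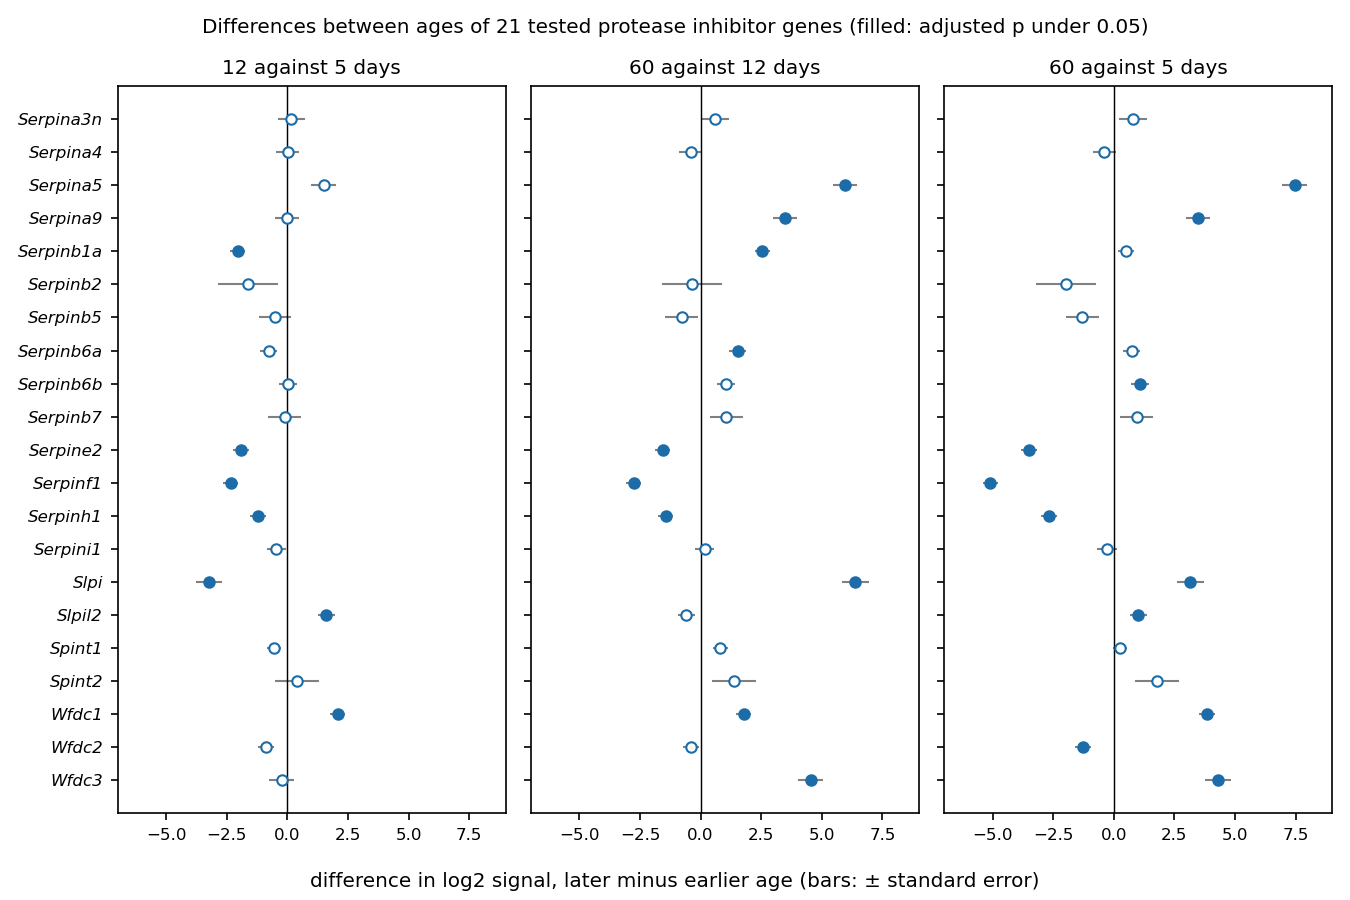
Difference in log2 signal of 21 of the 22 tested members, later minus earlier age (x axis, with standard errors as bars), in the 3 comparisons. Filled points mark an adjusted p under 0.05. Serpinf1, Serpinh1 and Serpine2 lie left of 0 in each panel and Wfdc1 right of 0, while Slpi lies left of 0 from 5 to 12 days (-3.22) and right of 0 from 12 to 60 days (6.39).

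Serpinh1, known as HSP47, is no protease inhibitor but the collagen chaperone of the endoplasmic reticulum. Its probe lies at chr1:156666914-156666946 in the rn4 build. Serpinh1 had levels of 6.55, 6.87 and 6.72 on the 5-day arrays, 5.49, 5.67 and 5.31 on the 12-day arrays and 4.43, 4.09 and 3.62 on the 60-day arrays. All 3 young arrays were above the 3 middle ones, and these above the 3 oldest. It fell by 2.67 ± 0.32 (standard error) on the log2 scale from 5 to 60 days, with an adjusted p of 7.91e-05. The step from 12 to 60 days was -1.44 ± 0.32 (adjusted p = 0.0073), and its call was lost without replicate 2 (-1.38, 0.118) or without replicate 3 (-1.32, 0.0698). The step from 5 to 12 days was -1.22 ± 0.32 (0.0309). That call was lost in 10 of the 12 fits that left out arrays, kept only without the 60-day array of replicate 1 or of replicate 3, with values from -1.31 to -1.13 and adjusted p from 0.0513 to 0.252 where lost.

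Serpinf1 encodes pigment epithelium-derived factor, a secreted serpin without protease target that is known as an inhibitor of blood vessel growth. Its probe lies at chr10:62714118-62714177. Serpinf1 went from 4.23, 4.70 and 4.50 at 5 days through 2.32, 2.09 and 2.03 at 12 days to -0.29, -0.66 and -0.91 at 60 days. The 3 ages were fully separated, and Serpinf1 had the largest fall of the members in each comparison that covered 60 days. It fell by 2.34 ± 0.31 in the first step (adjusted p = 0.000785) and by 2.76 ± 0.31 in the second (0.000106). Over the whole span it fell by 5.10 ± 0.31 (1.18e-06), and that call held in each alternative tried. Its neighbour on chromosome 10, Serpinf2, the plasmin inhibitor of plasma, was not tested.

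Serpine2, or protease nexin 1, inhibits thrombin, plasminogen activators and plasmin at the cell surface. Its brighter probe lies at chr9:79091862-79091921. On it Serpine2 read 0.14, 0.15 and 0.38 at 5 days, -2.16, -1.42 and -1.53 at 12 days and -3.24, -3.44 and -3.13 at 60 days. No array of an older age reached the lowest array of the age before. The gene fell by 1.92 ± 0.32 from 5 to 12 days (adjusted p = 0.00266), by 1.57 ± 0.32 from 12 to 60 days (0.00428) and by 3.49 ± 0.32 from 5 to 60 days (1.16e-05). Without replicate 2 the first step was -2.10 (0.0534) and the second -1.34 (0.116). A second probe gave -2.33 ± 0.47 (0.0086) for the first step and -2.86 ± 0.47 (0.000706) for the whole span, but -0.53 ± 0.47 (0.466) for the second step, when tested with every probe in the fit. The 60-day arrays of the second probe were below background, so its values against 60 days are not measured sizes.

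Serpinh1, Serpinf1 and Serpine2 fell together, so the 250 bases before the transcription start of each are shown, from the RefSeq promoter table of the GRCr8 build, 5′ to 3′ on the strand of the gene, with motif matches in capitals. The regions are chr1:163062977-163063226 on the minus strand, chr10:60760899-60761148 on the minus strand and chr9:88637203-88637452 on the minus strand.
Serpinh1: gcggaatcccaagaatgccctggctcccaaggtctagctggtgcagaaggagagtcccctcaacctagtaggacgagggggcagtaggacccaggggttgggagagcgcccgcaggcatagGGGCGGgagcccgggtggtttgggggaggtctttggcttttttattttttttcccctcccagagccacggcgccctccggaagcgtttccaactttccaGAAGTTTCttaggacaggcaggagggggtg
Serpinf1: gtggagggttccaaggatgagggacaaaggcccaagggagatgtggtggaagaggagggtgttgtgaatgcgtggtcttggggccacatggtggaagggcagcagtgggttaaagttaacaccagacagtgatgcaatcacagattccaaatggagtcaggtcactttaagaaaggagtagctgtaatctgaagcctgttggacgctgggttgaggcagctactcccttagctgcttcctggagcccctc
Serpine2: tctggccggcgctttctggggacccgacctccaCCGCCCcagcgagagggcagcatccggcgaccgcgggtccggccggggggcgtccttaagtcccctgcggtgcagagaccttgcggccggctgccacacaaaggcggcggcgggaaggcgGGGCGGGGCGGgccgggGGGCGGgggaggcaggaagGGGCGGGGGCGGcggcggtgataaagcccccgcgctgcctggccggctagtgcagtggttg
The motifs searched on both strands were the heat shock element core GAANNTTC, the TATA box TATAAA, the GC box GGGCGG, the CCAAT box, the AP-1 site TGANTCA and, in short form, the cAMP response element, searched as TGACG, with the androgen response element, searched as AGAACA. The heat shock core stands in Serpinh1 from -30 to -23, and 7.23% of 33469 promoters of this length hold one. One GC box starts at -129 in Serpinh1, and 6 GC boxes, some overlapping each other, stand in Serpine2. Of all promoters, 30.5% hold at least 1. Serpinf1 matched none of the 7 motifs. Of the 22 tested members, 18 had an entry in the table, and Slpi, Slpil2 and Wfdc1 were among those that did not. Among these 18, 8 had a GC box, 6 a CCAAT box (34.0% of promoters), 4 an AP-1 site (6.34%), 3 a heat shock core, 2 a TATA box (12.9%), 1 the androgen element (17.5%) and 0 the cAMP element (18.2%).

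Of the list of plasminogen activation and coagulation genes, 17 of 27 were tested. In it 2 rose and 1 fell from 5 to 12 days, 1 rose and 2 fell from 12 to 60 days, and 3 rose and 7 fell from 5 to 60 days. The medians were -0.62, -0.44 and -0.94. Thbd, thrombomodulin, the endothelial receptor that redirects thrombin, fell by 5.99 ± 0.62 from 12 to 60 days (adjusted p = 6.05e-05), with 2 of the 3 60-day arrays above background, and Lrp1, the receptor that clears serpin complexes, rose by 1.73 ± 0.46 (0.0182). Plat, the tissue plasminogen activator, had a difference of -1.30 ± 0.57 from 5 to 60 days (0.102), and Plau, its urokinase counterpart, was not tested.

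Among the procollagen genes and their folding enzymes, which Serpinh1 serves, 25 of 30 were tested. From 5 to 12 days 1 rose and 6 fell, from 12 to 60 days 0 rose and 10 fell, and from 5 to 60 days 1 rose and 16 fell, with medians of -1.05, -0.76 and -1.81. Col3a1, a fibrillar collagen chain, fell by 5.97 ± 0.52 from 5 to 60 days (adjusted p = 8.76e-06), and P4ha3, a prolyl hydroxylase subunit, fell by 4.89 ± 0.43 (8.68e-06). Col18a1 rose by 2.18 ± 0.35 from 5 to 12 days (0.00232). The peritubular and fibroblast list, which shares Col1a1, Col1a2 and Col3a1 with this one, fell over the same ages, with 7, 6 and 10 of 13 genes called lower in the 3 comparisons. Its part in the falls of Serpinh1, Serpinf1 and Serpine2 was not tested.

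The clade A serpins include plasma inhibitors and hormone carriers made mainly in liver, and 4 of the 11 on the array were tested. Of the 11, 10 lie within 576 kb on chromosome 6, from 127893107 to 128469256 in rn4. Serpina5, the protein C inhibitor, is known from the male reproductive tract, where it inhibits acrosin and plasminogen activators. Its probe lies at chr6:128161177-128161236. Serpina5 read -4.42, -5.11 and -5.76 at 5 days, -2.65, -3.66 and -4.51 at 12 days and 2.73, 2.22 and 2.13 at 60 days. It was above background on 0, 2 and 3 arrays of these ages, and the 60-day arrays lay far above the others. It rose by 5.96 ± 0.51 from 12 to 60 days (adjusted p = 1.84e-05), with 2 of the 3 12-day arrays above background. Against the 5-day arrays it was at least 82.8-fold higher at 60 days (1.95e-06), a log2 bound of 6.37 on the processed signal. Background correction by normexp on replicates 1 and 3 gave a log2 difference of 2.71 (0.186), below this bound. Such a bound sets the mean of the brighter age against a floor on each array of the dimmer age. The floor is the lowest level of any probe that counted as above background there, or the level of the probe itself, whichever was higher. The limit of a single probe can lie above that lowest level. On the 12-day array of replicate 3 it was -3.56, and Serpinb2 read -3.12 without being above background. A bound thus holds against this floor only. Here and below, the adjusted p beside a bound tests the difference of the measured levels and not the bound. For a gene that passed the filter through the later arrays only, it is no support for a rise. From 5 to 12 days the difference was 1.49 ± 0.51 (0.0878), where the ages overlapped and the difference was above 0 within each slide. With 0 of the 5-day arrays above background, 1.49 is no measured size, and the bound was 1.33-fold. With the replicate number as a block the same difference had an adjusted p of 0.0101, and without the 12-day array of replicate 3 it was 1.94 (0.0359). That array read -4.51, below the lowest level above background on it.

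Serpina9, known as centerin from germinal centre B cells, read -6.29, -6.07 and -6.19 at 5 days, -6.50, -6.53 and -5.59 at 12 days and -3.83, -2.54 and -1.77 at 60 days. It was above background on the 60-day arrays only. It was at least 2.68-fold higher at 60 than at 12 days (adjusted p = 0.000471) and at least 2.46-fold higher than at 5 days (0.000267). Both calls ended under local background subtraction on replicates 1 and 3, where the log2 differences were 0.35 (0.612) and 0.29 (0.70), below these bounds. Its probe lies at chr6:128052635-128052694, and the ages of 5 and 12 days cannot be ordered. Serpina4, or kallistatin, a kallikrein inhibitor, and Serpina3n, an inhibitor of granzyme B, were tested and not called. Serpina4 read -2.54, -4.22 and -3.11 at 5 days, -2.89, -3.97 and -2.96 at 12 days and -3.60, -3.45 and -3.99 at 60 days. Serpina3n read -5.02, -6.15 and -6.06 at 5 days, -4.94, -6.48 and -5.30 at 12 days and -4.22, -4.58 and -6.09 at 60 days, and was above background on 2 arrays, both at 60 days. The ages of both genes overlapped in each comparison.

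The WAP genes on chromosome 3 form a cluster of 5 members within 631 kb, from 155117325 to 155747970 in rn4, of which 4 were tested. Wfdc3, a member of this cluster with several WAP domains, lies at chr3:155747911-155747970. It read -4.86, -5.74 and -5.06 at 5 days, -6.36, -4.78 and -5.25 at 12 days and -1.76, -0.90 and -0.12 at 60 days. Only the 60-day arrays were above background. Wfdc3 was at least 9.24-fold higher at 60 than at 12 days (adjusted p = 0.000115) and at least 8.50-fold higher than at 5 days (7.92e-05). Under local background subtraction on replicates 1 and 3 the log2 differences were 1.24 (0.074) and 1.22 (0.0559), below these bounds, and both calls ended.

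The promoters of Serpina5 (chr6:128787831-128788080, plus strand) and Wfdc3 (chr3:173898295-173898544, minus strand) are shown because both genes were above background on every 60-day array and on no 5-day array.
Serpina5: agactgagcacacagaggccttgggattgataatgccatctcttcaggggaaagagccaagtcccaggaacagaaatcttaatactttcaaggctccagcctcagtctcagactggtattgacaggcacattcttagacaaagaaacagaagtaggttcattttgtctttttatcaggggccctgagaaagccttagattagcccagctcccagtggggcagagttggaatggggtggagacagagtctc
Wfdc3: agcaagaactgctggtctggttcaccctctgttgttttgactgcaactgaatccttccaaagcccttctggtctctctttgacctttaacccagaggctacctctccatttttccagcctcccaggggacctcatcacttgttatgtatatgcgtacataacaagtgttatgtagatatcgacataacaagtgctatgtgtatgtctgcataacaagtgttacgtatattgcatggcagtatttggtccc
No match to the 7 motifs stands in either, so neither has capitals, nor does one stand in Serpina9. This says only that these letters are not in the 250 bases shown.

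Serine proteases of germ cells and sperm, among them acrosin, a known target of Serpina5, rose over the same ages. Of 17 listed genes 8 were tested, and 8 of 8 rose from 12 to 60 days and from 5 to 60 days, with medians of 2.65 and 2.98, while 1 rose and 0 fell from 5 to 12 days. Acrbp, the binding protein of proacrosin, rose by 2.60 ± 0.38 from 12 to 60 days (adjusted p = 0.000535). Prss45, a testis serine protease, rose by 2.70 ± 0.36 (0.000317). Prss44 and Prss42 were above background on the 60-day arrays only, and genes that passed the filter in this way had to differ. The spermatocyte and spermatid lists rose with them, with 13 of 14 and 14 of 15 tested genes higher at 60 than at 12 days. Median levels at 5 and 12 days were -5.59 and -4.68 for the tested proteases and -5.79 and -4.94 for the spermatid list. These lie below the lowest level that counted as above background on any array of those ages. The counts of both lists are thus no support for a rise. The part of these cells in the rises of Serpina5, Serpina9 and Wfdc3 was not tested.

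**Figure D3:**
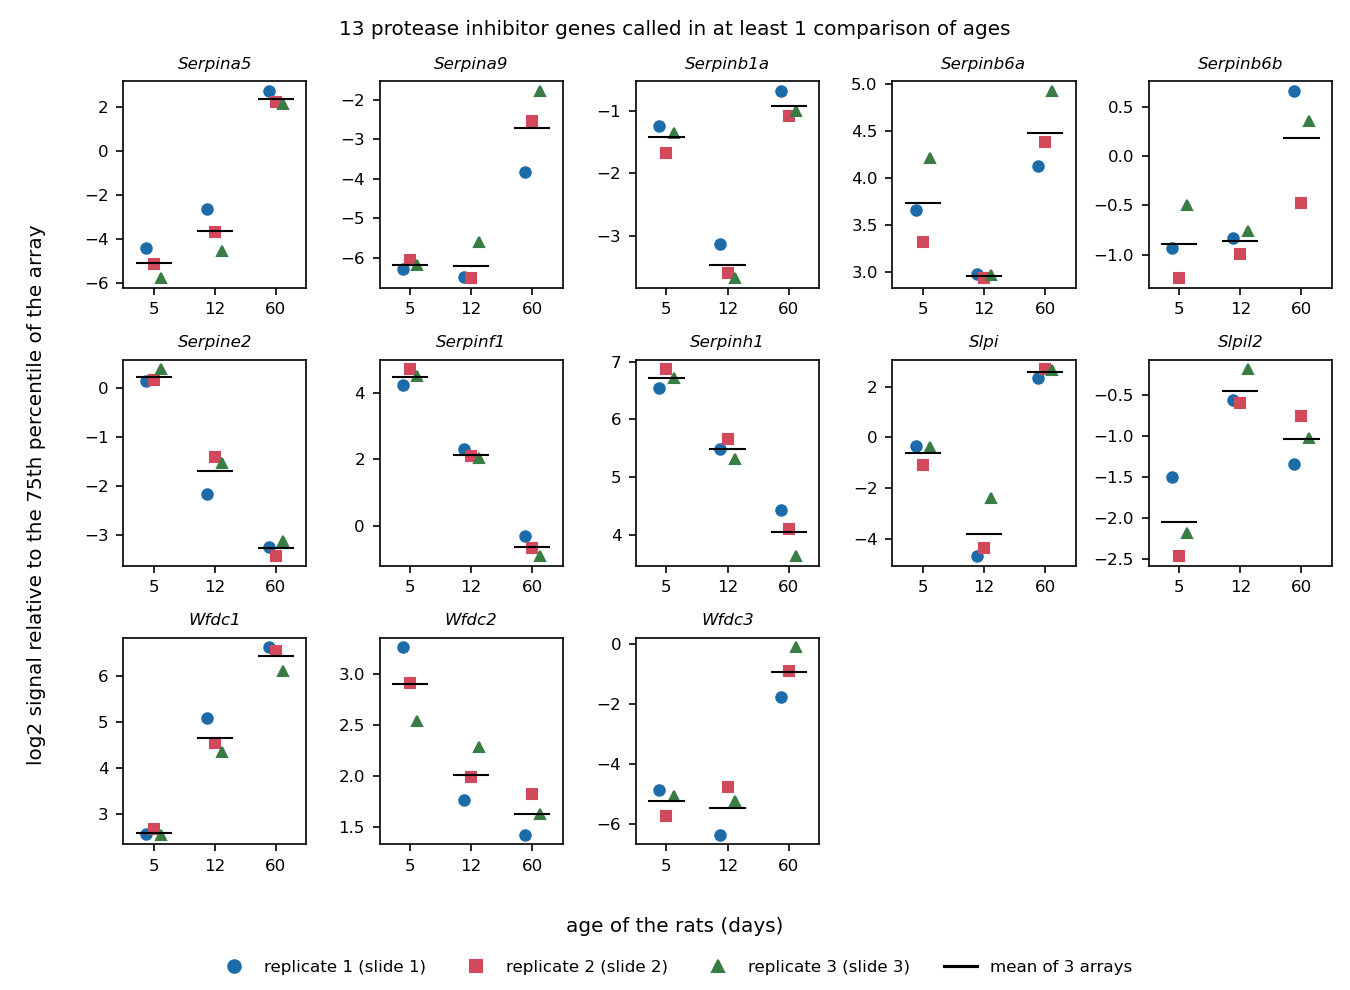
Levels of 13 of the 14 members called in at least 1 comparison (y axes, log2 signal over the 75th percentile, each with its own range) by age in days (x axes). Symbols are replicate numbers, which are also slides, and lines are means of 3 arrays. Serpinf1 descends from 4.23 to 4.70 at 5 days to -0.91 to -0.29 at 60 days, and Wfdc1 climbs from 2.55 to 2.68 to 6.12 to 6.63.

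Slpi, the secretory leukocyte protease inhibitor, blocks neutrophil elastase and cathepsin G on mucosal surfaces. Its brighter probe lies at chr3:155373892-155373953. Slpi read -0.35, -1.08 and -0.37 at 5 days, -4.70, -4.36 and -2.41 at 12 days and 2.33, 2.70 and 2.66 at 60 days. The 12-day arrays were lowest and the 60-day arrays highest, with no overlap, and the 12-day array of replicate 3 was well above the other 2. The fall from 5 to 12 days was -3.22 ± 0.54 (adjusted p = 0.0029), with 2 of the 3 12-day arrays above background. Without replicate 1 this fall was -2.66 (0.073), and without replicate 2 it was -3.20 (0.0524). Slpi then rose by 6.39 ± 0.54 from 12 to 60 days (1.84e-05), and from 5 to 60 days by 3.16 ± 0.54 (0.000905). The dimmer probe gave -2.17 ± 0.44, 6.43 ± 0.44 and 4.26 ± 0.44 for the 3 comparisons, each called when every probe was tested. This probe was above background on 5 arrays, none of them at 12 days, where it read -6.35, -6.69 and -5.57. Its first 2 values are thus differences against background and not measured sizes.

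Slpil2, now named Slpi-ps1 and classed as a pseudogene of Slpi, lies in the same cluster, and how far its probe reads transcripts of Slpi was not tested. It read -1.50, -2.47 and -2.18 at 5 days, -0.56, -0.60 and -0.18 at 12 days and -1.34, -0.76 and -1.02 at 60 days. Its 12-day arrays were the highest, where those of Slpi were the lowest. From 5 to 12 days it rose by 1.60 ± 0.35 (adjusted p = 0.013). The call went when replicate 2 was left out (1.47, 0.167), without replicate 3 (1.40, 0.153) or without the 5-day array of replicate 2 (1.39, 0.0646). From 12 to 60 days the difference was -0.59 ± 0.35 (0.259). From 5 to 60 days it rose by 1.01 ± 0.35 (0.0462), but 9 of the 12 fits that left out arrays lost the call, with adjusted p from 0.0513 to 0.405. It was kept only without replicate 1, without the 5-day array of replicate 1 and without the 60-day array of replicate 1, and without replicate 2 the value was 0.66.

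**Figure D4:**
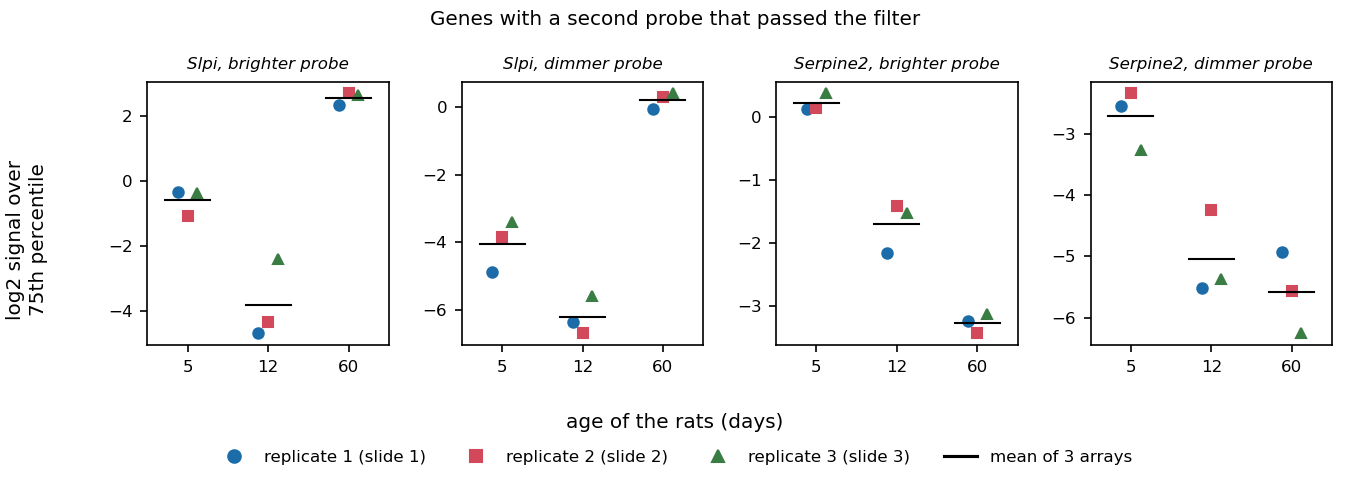
Levels on both probes of Slpi and of Serpine2 (y axes, log2 signal over the 75th percentile of the array) by age in days (x axes), with symbols for replicates and lines for means of 3 arrays. Both Slpi probes are lowest at 12 days and highest at 60 days, and the dimmer Serpine2 probe overlaps between 12 and 60 days. The dimmer Slpi probe at 12 days and the dimmer Serpine2 probe at 60 days were below background.

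Wfdc1, also called ps20, was described as a growth inhibitor secreted by prostate stroma. Its probe spans chr19:49941344-49942784, outside the cluster. Wfdc1 read 2.56, 2.68 and 2.55 at 5 days, 5.09, 4.55 and 4.34 at 12 days and 6.63, 6.55 and 6.12 at 60 days. The ages were separated at each step, and it was the only member that rose in all 3 comparisons. The rises were 2.07 ± 0.32 from 5 to 12 days (adjusted p = 0.00193), 1.77 ± 0.32 from 12 to 60 days (0.00226) and 3.84 ± 0.32 over the whole span (6.94e-06). Without replicate 2 the first step was 2.17 (0.0555) and the second 1.66 (0.0704).

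Wfdc2 is known as HE4 and was first described in epididymal epithelium. It lies at chr3:155587997-155588056 and read 3.26, 2.91 and 2.54 at 5 days, 1.76, 1.99 and 2.28 at 12 days and 1.42, 1.82 and 1.62 at 60 days. The lowest 5-day array was above the highest 12-day array. From 5 to 12 days the difference was -0.90 ± 0.33 (adjusted p = 0.112) and from 12 to 60 days -0.39 ± 0.33 (0.435). Wfdc2 fell by 1.28 ± 0.33 over the whole span (0.01), and leaving out replicate 1 (-1.01, 0.0816) or replicate 2 (-1.38, 0.0908) ended the call. Of the epididymal list 1 of 12 genes was tested. Of the duct epithelium list 5 of 8 tested genes fell and 0 rose from 5 to 12 days, 4 rose and 2 fell from 12 to 60 days, and 1 rose and 4 fell from 5 to 60 days, and its part in the values of Slpi and Wfdc2 was not tested.

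The clade B serpins are mostly intracellular, and many protect cells from their own granule or lysosomal proteases. Of the 13 on the array 6 were tested, 3 of them among 4 members within 623 kb on chromosome 17, from 37334213 to 37956814 in rn4. Serpinb1a, which inhibits neutrophil elastase and cathepsin G, lies at chr17:37956755-37956814. It read -1.24, -1.67 and -1.35 at 5 days, -3.13, -3.59 and -3.68 at 12 days and -0.68, -1.09 and -1.00 at 60 days. The 12-day arrays were lowest, without overlap, and 2 of them were above background. It fell by 2.05 ± 0.31 from 5 to 12 days (adjusted p = 0.00171) and rose by 2.55 ± 0.31 from 12 to 60 days (0.000185). From 5 to 60 days the difference was 0.50 ± 0.31 (0.252). Without replicate 2 the first step was -2.11 (0.0519).

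Serpinb6a, an inhibitor of cathepsin G and trypsin-like proteases, has its probe at chr17:37334213-37334272. It read 3.66, 3.32 and 4.21 at 5 days, 2.98, 2.93 and 2.96 at 12 days and 4.13, 4.38 and 4.93 at 60 days. The 12-day arrays were lowest, and the 5- and 60-day arrays overlapped. It rose by 1.52 ± 0.35 from 12 to 60 days (adjusted p = 0.00864), and leaving out replicate 2 (1.56, 0.0899) or replicate 3 (1.30, 0.0707) ended the call. The other differences were -0.77 ± 0.35 (0.209) from 5 to 12 days and 0.75 ± 0.35 (0.125) from 5 to 60 days.

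Serpinb6b is a close relative at chr17:37816952-37817011, and how far either probe reads the other transcript was not tested. It read -0.94, -1.24 and -0.49 at 5 days, -0.83, -0.99 and -0.76 at 12 days and 0.66, -0.47 and 0.35 at 60 days. The 60-day array of replicate 2 was only just above the highest 5-day array. Serpinb6b rose by 1.07 ± 0.37 from 5 to 60 days (adjusted p = 0.045), a call lost in 10 of the 12 fits that left out arrays and kept only without the 5-day array of replicate 3 and without the 60-day array of replicate 2. From 12 to 60 days the difference was 1.04 ± 0.37 (0.0649), with an adjusted p of 0.0259 with the replicate number as a block and a value of 1.37 (0.0317) without the 60-day array of replicate 2. The summed level of the macrophage list was also lowest at 12 days, with 8 of 13 tested genes lower than at 5 days and 5 of 13 higher at 60 than at 12 days. Cd14 and Lyz2 had their lowest means at 60 days and Mrc1, Csf1r and Adgre1 at 5 days. Other summed lists were lowest at 12 days as well. Leydig cell markers (6 of 8 tested) summed to 4.21 to 4.97, 2.46 to 3.22 and 3.51 to 3.95 at the 3 ages. Mesothelium markers (5 of 8) summed to 1.80 to 2.71, -1.22 to -0.64 and -0.53 to 0.67. Red blood cell markers (2 of 8) summed to -0.89 to 0.21, -2.44 to -1.47 and 3.46 to 3.95. Of the leukocyte granule proteases 8 of 18 were tested, and from 5 to 12 days 1 rose and 2 fell, from 12 to 60 days 0 rose and 2 fell, and from 5 to 60 days 0 rose and 3 fell, with medians of -0.12, -0.19 and -0.59. Gzmk, a granzyme, fell by 1.46 ± 0.34 and then by 1.95 ± 0.34 (adjusted p = 0.0177 and 0.00174). The part of these cells in the values of Slpi, Serpinb1a and Serpinb6a was not tested.

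Spint1 and Spint2 are membrane-bound Kunitz inhibitors of matriptase, prostasin and the activator of hepatocyte growth factor. Neither was called in any comparison in the fit of all 9 arrays without a block. Spint2, at chr1:84393874-84393933, read 0.31, -2.56 and -0.44 at 5 days, 0.30, -1.98 and 0.22 at 12 days and 1.52, -0.73 and 1.87 at 60 days. Replicate 2 was lowest at each age, and the ages overlapped in each comparison. From 12 to 60 days the difference was 1.37 (adjusted p = 0.307), with 1.23, 1.24 and 1.65 within the 3 slides, and from 5 to 60 days it was 1.78 (0.153), with 1.21, 1.82 and 2.31. With the replicate number as a block the adjusted p was 0.00693 and 0.00108, and without replicate 2 the whole span was 1.76 (0.0359). Local background subtraction on replicates 1 and 3 gave 1.39 (0.0269) from 12 to 60 days and 1.54 (0.00917) over the whole span. Spint1, at chr3:105768972-105769031, read -2.82, -2.90 and -2.66 at 5 days, -3.12, -3.54 and -3.41 at 12 days and -2.41, -2.49 and -2.71 at 60 days. Its 12-day arrays were lowest without overlap. The difference from 12 to 60 days was 0.82 (0.066), with an adjusted p of 0.0442 with the block, and it was 0.83 (0.048) after quantile normalization.

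Of the genes of hepatocyte growth factor activation and membrane serine proteases, 10 of 20 were tested. From 5 to 12 days 0 rose and 3 fell, from 12 to 60 days 4 rose and 2 fell, and from 5 to 60 days 3 rose and 3 fell, with medians of -0.96, 0.81 and -0.14. Prss8, or prostasin, fell by 1.71 ± 0.36 from 5 to 12 days (adjusted p = 0.0108) and St14, or matriptase, rose by 2.95 ± 0.65 from 5 to 60 days (0.00445), with 2 of the 3 5-day arrays above background. Htra1, a secreted serine protease, fell by 1.39 ± 0.37 (0.0344) and then rose by 3.17 ± 0.37 (0.000139).

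**Figure D5:**
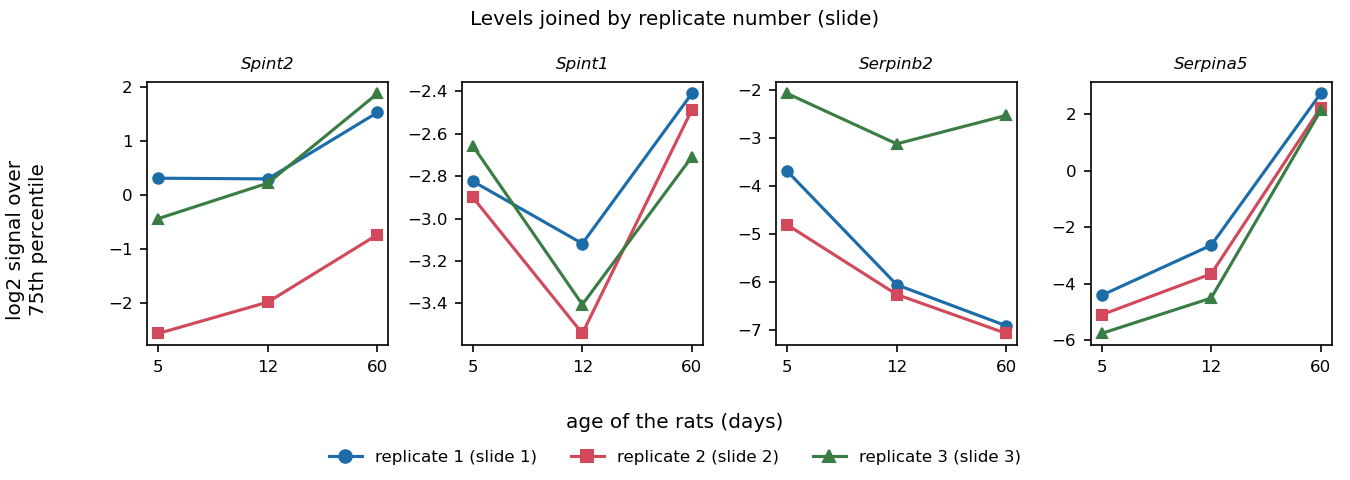
Levels of Spint2, Spint1, Serpinb2 and Serpina5 (y axes, log2 signal over the 75th percentile of the array) at each age in days (x axes, ages evenly spaced), joined by replicate number, which is also the slide. For Spint2 the line of replicate 2 runs below the others at each age, and for Serpinb2 that of replicate 3 runs above them.

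Serpinb2, or plasminogen activator inhibitor 2, read -3.69, -4.81 and -2.07 at 5 days, -6.06, -6.26 and -3.12 at 12 days and -6.91, -7.07 and -2.53 at 60 days. Replicate 3 was the highest array of every age, and the gene was above background on 2, 0 and 1 arrays of the 3 ages, so its 12-day level is only a bound. It lies in a cluster of 9 members on chromosome 13, of which 3 were tested, within 682 kb from 13056384 to 13738429 in rn4. The differences were -1.62 from 5 to 12 days (adjusted p = 0.506) and -1.98 from 5 to 60 days (0.247). With the replicate number as a block the adjusted p was 0.0405 and 0.00708, and without replicate 3 the second value was -2.74 (0.0041). Without the 60-day array of replicate 3 it was -3.47 (0.0202). Serpinb5, or maspin, and Serpinb7, known as megsin from the kidney, were not called either. Serpinb5 read -3.75, -4.23 and -3.82 at 5 days, -4.93, -4.78 and -3.62 at 12 days and -6.96, -4.74 and -4.00 at 60 days, and its difference of -1.30 from 5 to 60 days (0.16) was -1.91 (0.0454) without the 60-day array of replicate 3. Serpinb7 read -3.74, -6.29 and -3.99 at 5 days, -4.40, -5.70 and -4.26 at 12 days and -4.08, -4.16 and -2.97 at 60 days. It was above background on 1, 0 and 3 arrays of these ages, and the 5- and 60-day arrays overlapped. Serpini1, or neuroserpin, an inhibitor of tissue plasminogen activator in neurons, read -2.46, -2.49 and -2.35 at 5 days, -3.54, -2.70 and -2.43 at 12 days and -3.27, -2.66 and -2.20 at 60 days, with overlap of the ages in each comparison.

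The other 22 members were not tested. Of these, 17 were above background on no array and 5 on 1 array each. They were Serpina1, Serpina10, Serpina12, Serpina3k, Serpina3m, Serpina6 and Serpina7 of clade A, Serpinb10, Serpinb11, Serpinb12, Serpinb13, Serpinb3, Serpinb8 and Serpinb9e of clade B, Serpinc1, Serpind1, Serpinf2 and Serpini2, the Kazal genes Spink1, Spink3 and Spink5, and Wfdc5. Thus 0 of 3 Kazal members had a level that could be compared, and the values above are those of serpins, WAP and Kunitz genes. The plasma inhibitors antitrypsin (Serpina1), antithrombin (Serpinc1) and heparin cofactor II (Serpind1) were among the genes without a testable level. For these only a bound could be had, which does not show that the genes are silent.

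The scale of comparison bears on the calls. Scaled by 6 spike-in controls in place of the 75th percentile, the median difference of all genes moved by -1.31 from 5 to 12 days, 0.96 from 12 to 60 days and -0.35 from 5 to 60 days. The median spike-in lay 2.51, 2.71 and 3.37 over the 75th percentile on the 5-day arrays. It lay 4.68, 2.73 and 5.12 over it at 12 days and 3.63, 2.44 and 3.59 at 60 days. Arrays of 1 age thus differed among themselves on the spike-in scale, most at 12 days. On that scale 89 genes rose and 2216 fell from 5 to 12 days, 2618 rose and 380 fell from 12 to 60 days, and 1640 rose and 2473 fell from 5 to 60 days, where the main scale gave 1376 and 1433, 2765 and 2945, and 3890 and 4095. Members kept their sign in each called comparison, but 10 of the 30 calls were lost, among them the following. The first step lost Wfdc1 (0.75, adjusted p = 0.487) and Slpil2 (0.29, 0.795). The second step lost Serpinf1 (-1.80, 0.175), Serpine2 (-0.61, 0.716) and Serpinh1 (-0.48, 0.781). The whole span lost Wfdc2 (-1.64, 0.215), Serpinb6b (0.72, 0.678) and Slpil2 (0.65, 0.712).

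Local background subtraction with an offset, on replicates 1 and 3 only, also ended other calls. From 5 to 12 days it gave -0.82 (adjusted p = 0.318) for Serpinb1a, -1.24 (0.0955) for Serpine2, -1.20 (0.113) for Serpinh1, -1.44 (0.0685) for Slpi and 0.83 (0.352) for Slpil2. From 12 to 60 days it gave 0.88 (0.138) for Serpinb1a and -0.74 (0.235) for Serpine2. Over the whole span it gave 0.92 (0.0873) for Serpinb6b and 0.22 (0.739) for Slpil2.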

How the data were processed

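Scans of 9 single-colour rat arrays (3 ages, replicates 1 to 3) were analysed. Per the file headers, replicate 1 was read with Feature Extraction 9.5.3.1 on a G2505B scanner, and replicates 2 and 3 with 10.5.1.1 on a G2505C. The deposited processed signal is an intensity that is background-subtracted within each array, with no scaling between arrays, per the file headers. The authors' deposited series table holds log2 values, equal to the log2 processed signal minus 1 constant per array within 0.01 for at least 99.8% of probes, and served as an alternative.

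Of 41012 probes without controls, 254 that failed spot quality were dropped. From each log2 signal the 75th percentile of its array was subtracted, with no pseudocount. A probe was kept (26599) when 2 of 3 arrays of some age had it well above background, and the brightest probe on average represented each of 22637 genes. Names came from RefSeq accessions (11061 probes), current symbols (5081), older symbols (4478) or the file (20138). Probe positions are rn4, as the files give them, and exons are not stated for lack of an annotation of that build. One probe named Serpinb5 in the design of replicate 1 but Fbxo21 in the later one was left out.

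Limma 3.58.1 in R 4.3.3 fitted 1 mean per age to all 9 arrays (6 residual and 4.66 prior degrees of freedom), with 3 contrasts and Benjamini-Hochberg adjustment over all genes, and the code was tested on simulated data. Each replicate number is 1 slide, and the position on the slide follows age, so the 2 cannot be told apart. Within ages, deviations of arrays with the same number had correlations of 0.18 to 0.60 and those of the others -0.51 to 0.09, so the numbers pair arrays. Alternatives covered scaling, filters, probe choice, background correction, a slide block and arrays left out. Members called in any comparison are given in full, except 1 that counts include but that is not reported here, and the others by count and values. The members and lists were chosen with earlier results of these data known. The number of arrays limits the precision.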

Additional observations from a re-analysis of the deposited data

How the results depend on the processing

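Of the 30 called differences of members, 0 changed sign under any alternative. Most alternatives could not change one. The ages did not overlap in any called comparison, so leaving out arrays could not reverse a sign. The slide block, the fits of 2 ages alone and the 2-fold rule leave the difference itself unchanged. Mainly the scalings and background corrections could have done so. Testing each deposited log2 column in place of the scans kept all 30 calls. Those columns hold nearly the same values on nearly the same scale, so they could hardly change a call. Asking for at least a 2-fold difference also kept all 30. Testing every probe kept all 30 too, but there the probe with the lowest p-value stood for each gene. A call could thus hardly be lost by it. There the dimmer Serpine2 probe, below background at 60 days, was not called from 12 to 60 days (-0.53, limma adjusted p = 0.466), while the brighter one was. Median scaling and quantile normalization each lost 1, fits of the 6 arrays of both ages alone 2 and no filter 3. With the replicate number as a block, which pairs arrays of 1 slide, the members that rose were 3, 10 and 8 and those that fell 6, 4 and 6 in the comparisons of 12 with 5, 60 with 12 and 60 with 5 days. The block added the 7 calls given above for Serpina5, Serpinb2, Serpinb6b, Spint1 and Spint2 and changed no other call of a member.

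On the spike-in scale 0 members rose from 5 to 12 days and 0 fell from 12 to 60 days (limma, with 0 and 1 at an unadjusted p under 0.05), and 2998 and 4113 genes were called in the comparisons of 60 with 12 and 60 with 5 days. Kept to genes above background on all 9 arrays, 3 members fell from 5 to 12 days, 2 rose from 12 to 60 days and 3 rose from 5 to 60 days, with 1530, 3257 and 4497 genes called, since fewer genes were tested. With arrays left out, members that rose numbered 0 to 3 (2 at an unadjusted p under 0.05 where 0), 5 to 8 and 5 to 6, those that fell 1 to 5, 1 to 4 and 3 to 6, and genes called 846 to 3085, 2778 to 5727 and 4933 to 8025, lowest without replicate 2 in each comparison.

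Background correction by normexp could use replicates 1 and 3 only and left 1 of the 30 calls, the fall of Serpinf1 from 5 to 60 days. For Serpina9 it gave 0.17 and 0.06 against 12 and 5 days, and for Wfdc3 0.61 and 0.62. In the same order it gave 2.39 and 2.71 for Serpina5 and 2.61 and 1.67 for Slpi. There 0 members rose and 0 fell in both steps (1 and 1, then 2 and 1, at an unadjusted p under 0.05), 0 rose and 1 fell from 5 to 60 days (2 rose at an unadjusted p under 0.05), and 4, 2 and 180 genes were called. After it the dimmest percentile lay at 341 to 1014 intensity units on the arrays of replicate 3 and at 55.3 to 56.1 on those of replicate 1. The 75th percentile lay at 537 to 1157 on replicate 3 and at 226 to 349 on replicate 1. On replicate 3 normexp thus left a narrow range of log2 signal between these percentiles. Local background subtraction with an offset of 50 on the same 6 arrays, chosen after seeing the data, kept 15 calls, as did leaving out replicate 2 alone. In it 1 member rose and 1 fell from 5 to 12 days, 2 fell from 12 to 60 days and 4 rose from 5 to 60 days, with 782, 2244 and 3796 genes called. The cause of the differences between background corrections was not tested. Signal over background limits Serpina9 and Wfdc3, and Serpina5 against the 5-day arrays, to bounds and leaves 22 members without a test.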
